A study of Mus musculus with 8 samples.

Results

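The genes described here encode structural parts of the axoneme and flagellum of sperm, together with a few proteins needed to build them. They were chosen by name, from a list of 46 genes of the dynein arms, their assembly factors, the central pair, the radial spokes, the nexin link, the tektins, the outer dense fibres and the fibrous sheath. The name Spag6 fits a pair of mouse genes, Spag6 on chromosome 2 and Spag6l on chromosome 16, so the list was read as 47 genes. Of these, 43 are among the 19057 genes that the 45281 probes of the array name singly (87 probes), and 30 have a probe detected in at least 1 animal (46 probes). Among the probes that name a single gene, none was found by current or older symbol for Tekt2, Tekt4, Meig1 and Rsph10b, which are not analysed here.

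Total RNA was taken from the whole testes of male mice at 16 days post partum (dpp), 4 of them Tex19.1-/- and 4 Tex19.1+/-, and each animal was hybridized to its own array on Illumina Mouse WG-6 v2.0 Beadchips. Tex19.1 is a gene of germ cells and pluripotent cells, and the study used the comparison to ask which transcripts, above all those of retrotransposons, depend on it. The labels give the strain of all animals as C57BL/6, and the methods describe a knockout line backcrossed to that strain for a few generations. The methods name wild type as well as heterozygous littermates as controls, although the labels call all 4 controls Tex19.1+/-. Whether the animals came from separate litters is not given, so the tests measure the spread between these 8 animals.

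The axoneme is the microtubule core of a cilium or flagellum. Its outer doublet microtubules carry dynein arms, which slide the doublets against each other, while the radial spokes and the central pair set the pattern of bending. In the sperm tail the core is wrapped by outer dense fibres and by a fibrous sheath. At 16 dpp the germ cells of the first wave of spermatogenesis have reached the pachytene stage of meiosis, and many transcripts of the tail are made in pachytene spermatocytes and round spermatids, ahead of the growth of the tail itself.

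A value below is the log2 of a quantile-normalized bead signal unless it is called a fold, and a change is Tex19.1-/- minus Tex19.1+/-. A gene is represented by its detected probe with the highest mean signal, and a call is an adjusted p of at most 0.01 in limma over all 19089 detected probes. The probe of Tex19.1 read 5.36, 5.72, 5.57 and 5.54 in Tex19.1-/- testes and 8.36, 8.32, 7.88 and 7.99 in Tex19.1+/- testes. It was detected in 0 of 4 Tex19.1-/- and 4 of 4 Tex19.1+/- animals, at least 4.33-fold lower (adjusted p = 6.3e-07), and it was not tested whether the deletion takes out the sequence this probe reads. The mean bead signal before normalization was 79.0 to 126 in Tex19.1-/- arrays and 90.8 to 159 in Tex19.1+/- arrays, and 13720 to 14668 probes were detected in Tex19.1-/- arrays against 14152 to 15876 in Tex19.1+/- arrays.

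Transcripts of 11 flagellum genes fell in Tex19.1-/- testes, and 0 were called higher. They fell at their representative probe, 9 of them at least 2-fold. Of the other members of the 47, 19 were not called, 13 were not detected in any animal and 4 had no probe. The genes that fell come from 7 of 8 structural classes: Dnah8 and Dnaic1 of the dynein arms, Zmynd10 and Dnaaf1 of arm assembly, Spag6l of the central pair, Rsph1 and Rsph9 of the radial spokes, Ccdc39 of the axonemal ruler, the tektin Tekt1, and Ak8 and Qrich2 of the remaining flagellar genes. Of all detected probes, 1.63% were called lower, 0.828% were called lower at least 2-fold and 0.141% were called higher. At an unadjusted p under 0.05 in limma, 23 of the detected genes were lower and 0 higher. The share of all detected probes at this limit was not worked out, so here and below such counts have no background to be read against. Odf2 and Spag16 were called at a probe other than their representative one, which makes 13 genes called at any probe, but that probe of Spag16 was detected in only 1 animal, a Tex19.1+/- one, and shows no fall above background.

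The largest fall was that of Tekt1, 4.54-fold, and the smallest among the called representative probes was that of Dnaic1, 1.92-fold. In 20 of the 30 detected genes all Tex19.1-/- values lay below all Tex19.1+/- values, as they did for 6.06% of all detected probes, and in no gene was it the other way round. The change was negative in 29 of 30 genes, with Dnah1 (0.11) as the exception, and its median was -0.60, against 0.02 for all detected probes. Because a probe seen only in Tex19.1+/- testes had to be lower in Tex19.1-/- testes to enter the 30, the genes detected in all 8 animals were also counted apart: 8 of these 16 were called lower, 12 had no overlap and the median change was -0.95. Whole testis RNA cannot tell fewer cells of a type from less RNA per cell.

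**Figure D1:**
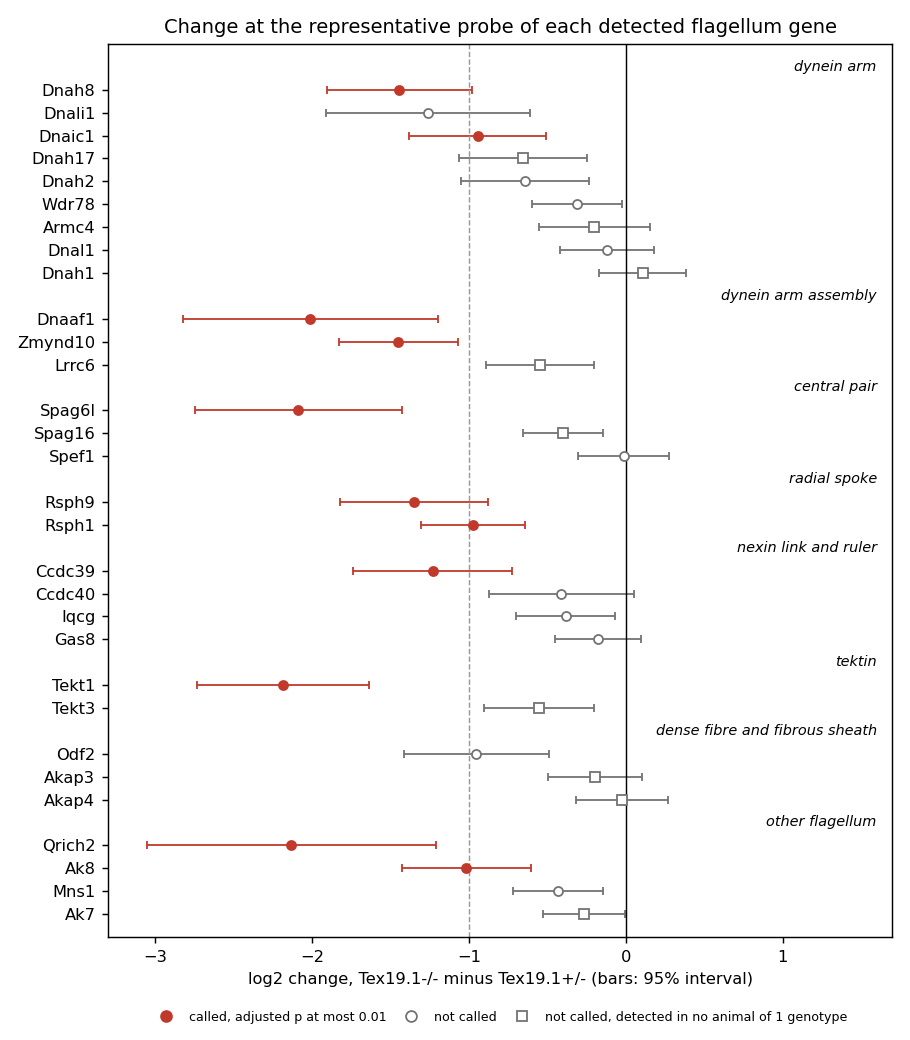
Log2 change (Tex19.1-/- minus Tex19.1+/-) at the representative probe of each of the 30 detected flagellum genes, by structural class. Bars are 95% intervals from limma's standard error and the residual degrees of freedom alone, and are wider than limma's p-values imply. Filled red points are the 11 genes called lower, open circles were not called, and open squares were not called and were not detected in any animal of 1 genotype. The dashed line marks a 2-fold decrease, and 29 of 30 points lie left of 0.

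Markers of germ cell stages also differed with genotype in these samples. Of 14 detected marker genes of mid to late pachytene spermatocytes 8 were called lower, and their summed linear signal was 6380 to 10364 in Tex19.1-/- testes against 17375.5 to 26644 in Tex19.1+/- testes. The summed signal of the flagellum genes was 7417 to 10288 in Tex19.1-/- testes against 14580 to 21471 in Tex19.1+/- testes. Bright genes weigh most in both sums. The radial spoke genes alone gave 3603 to 5467 in Tex19.1-/- testes and 7555 to 10029 in Tex19.1+/- testes. Hspa2, the brightest of the pachytene markers, was not called at its representative probe (change -0.65 without overlap, adjusted p = 0.028 in limma). Another probe of Hspa2, detected in every animal, was called lower (change -0.98, adjusted p = 0.0011 in limma). Of the 12 spermatid markers with a probe 3 were detected and 0 called, and Prm1, Tnp1, Tnp2 and Acrv1 were not detected in any animal. Markers of early meiotic prophase summed to 2600 to 2906 in Tex19.1-/- testes and 3116 to 3593 in Tex19.1+/- testes, with 1 of 7 detected genes, Spo11, called lower. The probes of Sycp1, Sycp3, Dmc1 and Hormad1 in that list were not detected, although their transcripts belong to this stage, so an undetected probe does not show that a transcript is absent. For spermatogonia, Sertoli, Leydig, peritubular myoid, endothelial, macrophage and erythroid markers 0 genes were called in limma. At an unadjusted p under 0.05, 12 of the 14 detected mid to late pachytene markers, 5 of the 7 early prophase markers and 1 of the 3 spermatid markers were lower. At the same limit 2 spermatogonial, 1 Sertoli, 1 Leydig and 2 macrophage markers were higher. Of 11 markers of the rete, efferent ducts and epididymis with a probe, tissue that carries motile cilia of its own, 3 were detected and 0 called, and Pax2, Pax8, Epcam and Tmem212 were not detected. The part of the pachytene markers in the fall of the flagellum genes was not tested.

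**Figure D2:**
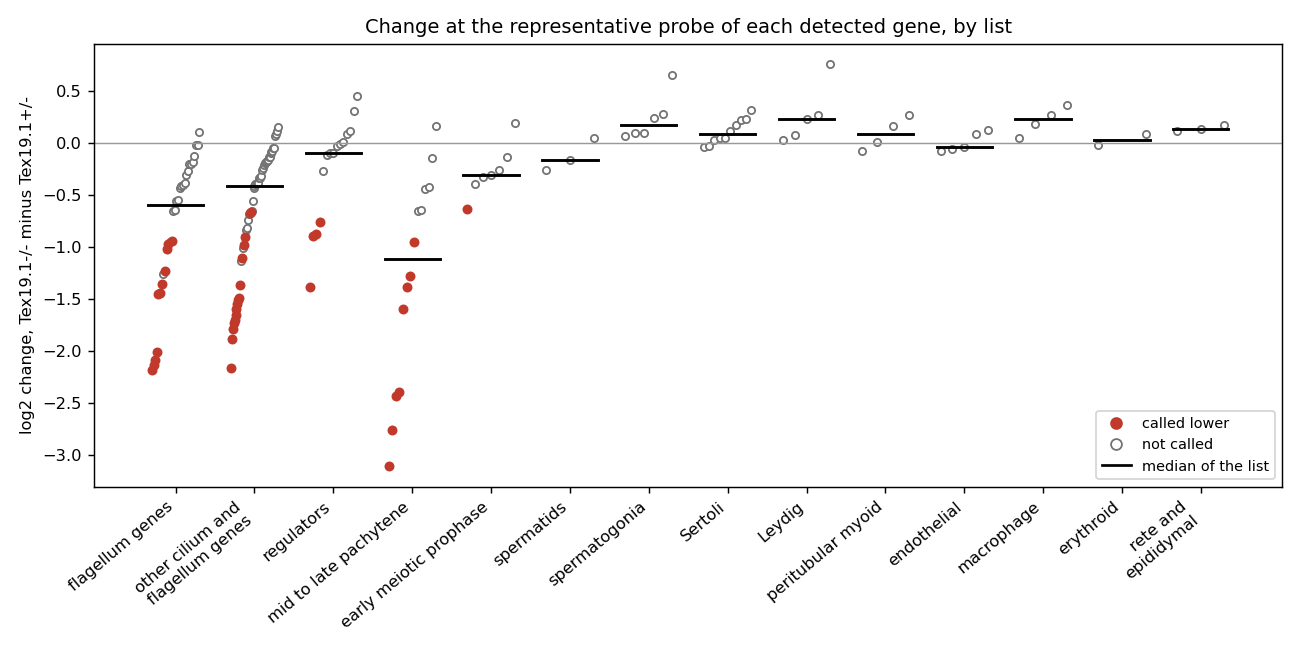
Log2 change (Tex19.1-/- minus Tex19.1+/-) at the representative probe of each detected gene, for the flagellum genes, other cilium and flagellum genes, transcription regulators and markers of testis cell types. Filled points were called lower and bars are medians. The medians stand at -0.60 for the flagellum genes, -0.41 for the other cilium genes and -0.09 for the regulators. That of the mid to late pachytene markers, the list that falls furthest, is -1.11.

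The promoters of Tekt1, Spag6l and Zmynd10, which fell, and of Spag16, called only at a probe near the limit of detection, are shown because they hold an arm of the X-box, the sequence bound by RFX transcription factors, which are known for control of ciliary genes. RefSeq promoter windows (GRCm38.p6, from 250 bases before to 50 after an annotated start) were found for 36 of the genes, in 41 windows, and for 11 of the 13 genes called at any probe, Dnaaf1 and Rsph1 being the others. One X-box arm was searched as GTTGCC on both strands, which also reads as GGCAAC. It lay in 13 of the 41 windows (31.7%), against 12.5% of all 32851 windows, and in 4 of the 15 windows of the called genes (26.7%). Genes that were detected but not called also hold it, Gas8 with 3 matches and Iqcg and Mns1 with 2 each. So do Dnaic2, Hydin, Odf3, Ropn1l, Spag6 and Spef2, which were not detected. The windows are printed 5′ to 3′ along the gene with each arm in capitals, Tekt1 at chr11:72361833-72362132 on the minus strand, Spag6l at chr16:16829314-16829613 on the minus strand, Zmynd10 at chr9:107547054-107547353 on the plus strand and Spag16 at chr1:69826720-69827019 on the plus strand.
Tekt1: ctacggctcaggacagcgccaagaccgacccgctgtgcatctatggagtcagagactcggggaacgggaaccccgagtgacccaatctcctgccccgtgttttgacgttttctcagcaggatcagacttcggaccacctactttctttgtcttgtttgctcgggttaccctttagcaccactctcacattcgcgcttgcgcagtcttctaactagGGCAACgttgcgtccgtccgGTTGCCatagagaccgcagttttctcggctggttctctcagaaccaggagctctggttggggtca
Spag6l: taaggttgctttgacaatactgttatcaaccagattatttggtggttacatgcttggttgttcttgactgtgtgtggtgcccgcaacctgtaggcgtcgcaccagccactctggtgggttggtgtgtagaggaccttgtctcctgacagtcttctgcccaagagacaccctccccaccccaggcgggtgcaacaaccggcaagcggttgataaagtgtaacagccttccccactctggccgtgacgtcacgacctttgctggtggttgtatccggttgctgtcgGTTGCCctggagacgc
Zmynd10: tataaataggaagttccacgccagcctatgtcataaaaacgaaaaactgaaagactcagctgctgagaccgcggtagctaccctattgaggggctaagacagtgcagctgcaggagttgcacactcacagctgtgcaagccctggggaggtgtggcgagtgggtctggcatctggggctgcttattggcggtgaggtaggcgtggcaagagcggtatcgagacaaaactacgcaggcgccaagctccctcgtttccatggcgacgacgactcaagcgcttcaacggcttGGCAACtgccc
Spag16: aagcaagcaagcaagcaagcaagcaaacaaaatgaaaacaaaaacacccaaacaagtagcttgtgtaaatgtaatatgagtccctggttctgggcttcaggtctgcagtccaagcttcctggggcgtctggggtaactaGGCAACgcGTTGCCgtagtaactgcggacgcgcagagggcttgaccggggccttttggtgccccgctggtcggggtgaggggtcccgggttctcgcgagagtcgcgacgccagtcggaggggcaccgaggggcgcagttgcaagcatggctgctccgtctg
In Spag16 and Tekt1 a GGCAAC is followed by a GTTGCC, the reverse of their order in the full X-box. In Spag6l and Zmynd10 there is a single exact match, close to the end of the window and past the annotated start. An arm with other letters was not searched for and is not marked.

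One strict form of the full X-box, GTTNCC, then any pair of bases, then GGNAAC, was in 0 of the 41 windows and in 0.45% of all windows. Arms with other letters or at other distances were not searched, so this does not show that a promoter lacks an X-box. The core letters of forkhead sites, TGTTTA, were in 9 windows (22.0%) against 13.4% of all windows, and CAGTTG, letters of MYB sites that also form an E-box, were in 8 (19.5%) against 13.7%. Of the genes called at any probe, 1 window held TGTTTA (Dnah8) and 5 held CAGTTG (Ak8, Dnah8, Spag16, Zmynd10 and another start of Tekt1). The motifs were chosen with the calls known, and a match describes letters only.

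Among the dynein arms, Dnah8, a heavy chain of the outer arm found in sperm, read 6.38, 6.33, 6.47 and 6.52 in Tex19.1-/- testes, against 7.56, 7.55, 7.77 and 8.58 in Tex19.1+/- testes. The Tex19.1-/- animals lay close together and all below the lowest control. The log2 change was -1.44 (standard error 0.19, adjusted p = 8.3e-04), a 2.72-fold fall. Another probe of Dnah8, detected in 1 Tex19.1+/- animal, changed by -0.28 (adjusted p = 0.37). Dnaic1, an intermediate chain of the outer arm, read 6.96, 6.39, 7.19 and 6.93 in Tex19.1-/- testes and 7.63, 7.50, 7.89 and 8.21 in Tex19.1+/- testes. The groups did not overlap, and it fell by 0.94 (standard error 0.18, adjusted p = 0.0087), or 1.92-fold. At the other probe of Dnaic1 the values overlapped and the change of -0.56 was not called (adjusted p = 0.16).

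Dnali1, the light intermediate chain of inner arms, read 6.03, 5.98, 6.49 and 6.24 in Tex19.1-/- testes and 6.99, 6.93, 7.40 and 8.46 in Tex19.1+/- testes, without overlap. Its change of -1.26 (standard error 0.27) missed the threshold (adjusted p = 0.018) and passed it with the replicate number as a block (adjusted p = 9.0e-04). That block is a pairing taken from these data alone, so here and below it is no independent support. It called 470 of all detected probes lower, against 311 without it. Dnah2, of the inner arms, and Dnah17, of the outer arms, changed by -0.64 and -0.66 without overlap (adjusted p = 0.057 and 0.052), Dnah17 being detected in 0 Tex19.1-/- and 4 Tex19.1+/- animals, at least 1.28-fold lower. Wdr78, an inner arm intermediate chain, changed by -0.31 (adjusted p = 0.24), and Armc4, which docks outer arms, by -0.20 (adjusted p = 0.60), both with overlap.

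Not every dynein gene was low. Dnal1, a light chain of the outer arm, had 4 detected probes with changes of -0.02 to -0.18, none called. At the representative probe of Dnal1 the values were 7.46, 7.18, 7.39 and 7.18 in Tex19.1-/- testes and 7.29, 7.57, 7.20 and 7.63 in Tex19.1+/- testes, which overlap, with a 95% interval of the change of -0.42 to 0.18. Dnah1, an inner arm heavy chain, changed by 0.11 (95% interval -0.17 to 0.38, adjusted p = 0.73) and was detected in 1 Tex19.1-/- animal and 0 Tex19.1+/- animals. Dnaic2 and Wdr63 were not detected in any animal.

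Dynein arms are put together in the cytoplasm before they enter the cilium, and of the 3 assembly factors listed, all detected, 2 fell. Zmynd10 read 6.29, 5.62, 6.25 and 6.18 in Tex19.1-/- testes, against 7.40, 7.47, 7.41 and 7.86 in Tex19.1+/- testes. The genotypes lay more than 1 log2 unit apart, and Zmynd10 fell by 1.45 (standard error 0.16, adjusted p = 2.4e-04), or 2.73-fold. Dnaaf1 read 8.02, 7.37, 8.85 and 8.03 in Tex19.1-/- testes and 9.57, 9.61, 10.01 and 11.12 in Tex19.1+/- testes, a fall of 2.01 (standard error 0.33, adjusted p = 0.0035), or 4.03-fold. The spread within each genotype was wide, yet the highest Tex19.1-/- value stayed below the lowest Tex19.1+/- value.

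The other 2 detected probes of Dnaaf1 did not follow. One of them, detected in all 8 animals, read 8.76, 8.53, 8.90 and 8.90 in Tex19.1-/- testes and 8.80, 8.52, 8.76 and 8.73 in Tex19.1+/- testes, a change of 0.07 (adjusted p = 0.84) whose sign turned under median scaling with another shift (-0.11). The last of the 3 changed by -0.18 (adjusted p = 0.50). Where these probes lie on the transcripts of Dnaaf1 was not analysed here. Lrrc6, the binding partner of Zmynd10, read 5.68, 5.38, 5.44 and 5.33 in Tex19.1-/- testes and 6.27, 6.06, 6.10 and 5.60 in Tex19.1+/- testes, with overlap at a single control. It was detected in 0 Tex19.1-/- and 3 Tex19.1+/- animals, and its change of -0.55 (adjusted p = 0.053) was called with the replicate block (adjusted p = 0.0064). Over the limit of detection in Tex19.1-/- testes the Tex19.1+/- mean was 0.99-fold, which shows no fall above background.

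The central pair showed a single strong fall. Spag6l, an armadillo repeat protein of the central apparatus, read 6.83, 5.99, 7.28 and 6.68 in Tex19.1-/- testes, against 8.75, 8.23, 8.65 and 9.50 in Tex19.1+/- testes. It was lower in 4 of 4 Tex19.1-/- animals and fell 4.25-fold. A second probe of Spag6l, detected in 1 Tex19.1-/- animal and 0 Tex19.1+/- animals, changed by -0.09 (adjusted p = 0.84), and the change was close to 0 and positive when Tex19.1-/- replicate 2 was left out. The related gene Spag6 was not detected in any animal, and whether the probes of either copy read the other was not tested.

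Spag16, a WD repeat protein of the central apparatus, had readings near the limit of detection. At its representative probe it read 5.56, 5.57, 5.81 and 5.86 in Tex19.1-/- testes and 6.09, 6.10, 6.19 and 6.03 in Tex19.1+/- testes, a change of -0.40 that was not called (adjusted p = 0.059). A further probe of Spag16 read 5.17, 4.69, 4.78 and 4.82 in Tex19.1-/- testes and 5.92, 5.72, 5.92 and 6.14 in Tex19.1+/- testes and was called lower (change -1.06, adjusted p = 5.1e-04). That probe was detected in 1 of the 8 animals, a Tex19.1+/- animal, so no fold is given. Spef1, which bundles the microtubules of the central pair, was detected in all 8 animals and changed by -0.01 (95% interval -0.30 to 0.27), with a sign that turned under median scaling, with array weights and with some animals left out. Hydin, Spag17 and Spef2, large or projecting proteins of the central pair, were not detected.

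Both detected radial spoke genes fell. Rsph1, of the spoke head, read 12.08, 11.77, 12.39 and 11.96 in Tex19.1-/- testes and 12.95, 13.06, 12.84 and 13.23 in Tex19.1+/- testes. All Tex19.1-/- values lay below all Tex19.1+/- values, and Rsph1 fell by 0.97 (standard error 0.14, adjusted p = 0.0011), or 1.96-fold. Rsph9, also of the spoke head, fell at both of its probes, by 1.35 (adjusted p = 0.0013) and by 1.10 (adjusted p = 0.0046). At the brighter of the probes Rsph9 read 6.89, 6.70, 6.85 and 6.31 in Tex19.1-/- testes, against 7.84, 7.82, 7.80 and 8.69 in Tex19.1+/- testes. Rsph4a of the spoke head was not detected.

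Of the ruler proteins, which set the repeat of arms and spokes along the doublet, Ccdc39 fell and Ccdc40 was not called. Ccdc39 read 6.55, 6.53, 7.02 and 6.77 in Tex19.1-/- testes, against 7.33, 7.87, 8.03 and 8.57 in Tex19.1+/- testes. Ccdc39 fell by 1.23 (standard error 0.21, adjusted p = 0.0042), or 2.35-fold, and the genotypes did not overlap. A second probe of Ccdc39, detected in 0 Tex19.1-/- and 4 Tex19.1+/- animals, missed the threshold and was lower by at least 1.20-fold (adjusted p = 0.019). Its partner Ccdc40 read 5.76, 5.95, 6.10 and 5.94 in Tex19.1-/- testes and 6.03, 6.10, 6.20 and 7.06 in Tex19.1+/- testes, with overlap (change -0.41, adjusted p = 0.36). The nexin link genes Iqcg and Gas8, parts of the complex that joins neighbouring doublets, changed by -0.38 without overlap (adjusted p = 0.17) and by -0.18 (adjusted p = 0.55).

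Tekt1 had the largest change among the 30 representative probes. The tektins are filament proteins inside the doublet microtubules, and Tekt1 read 6.95, 6.45, 7.59 and 7.11 in Tex19.1-/- testes, against 8.92, 9.15, 8.98 and 9.78 in Tex19.1+/- testes. It fell by 2.18 (standard error 0.22, adjusted p = 1.8e-04). A second probe of Tekt1 fell as well, reading 6.07, 6.03, 6.57 and 6.31 in Tex19.1-/- testes and 7.59, 7.72, 7.83 and 8.33 in Tex19.1+/- testes, 3.08-fold lower (adjusted p = 1.7e-04). Neither probe showed any overlap of the genotypes. Tekt3 read 5.44, 5.13, 5.30 and 5.52 in Tex19.1-/- testes, where it was not detected, and 5.76, 5.59, 6.00 and 6.25 in Tex19.1+/- testes, where 2 animals had it detected. Its change of -0.55 was not called (adjusted p = 0.056) and was called with the replicate block (adjusted p = 0.0066). The Tex19.1+/- mean of Tekt3 was 0.92-fold the limit of detection in Tex19.1-/- testes, which shows no fall above background. Tekt5 was not detected.

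Most genes of the accessory structures of the tail were not detected at this age. Odf1 and Odf3 of the outer dense fibres and Ropn1 and Ropn1l of the fibrous sheath were not detected in any animal. Akap3 and Akap4, the anchoring proteins of the fibrous sheath, were each detected in 1 Tex19.1+/- animal, and changed by -0.20 (adjusted p = 0.53) and -0.02 (adjusted p = 0.96). The sign of Akap4 turned under median scaling, cyclic loess, with signals below 0 set to 0 and with some animals left out. Akap3 read 5.75, 5.71, 5.50 and 5.79 in Tex19.1-/- testes and 5.72, 6.14, 5.70 and 5.97 in Tex19.1+/- testes, which overlap.

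Odf2, named for the outer dense fibres and known also as a protein of centrioles in dividing cells, was the exception. At its representative probe Odf2 read 8.06, 7.95, 8.34 and 7.77 in Tex19.1-/- testes and 8.60, 8.98, 8.77 and 9.59 in Tex19.1+/- testes, without overlap. Its change of -0.95 lay just past the threshold (adjusted p = 0.011) and was called with the replicate block (adjusted p = 0.0066). A dimmer probe of Odf2 was called lower, with 7.41, 7.23, 7.81 and 7.25 in Tex19.1-/- testes against 8.42, 8.49, 8.41 and 9.13 in Tex19.1+/- testes (change -1.19, adjusted p = 0.0014). The third probe of Odf2, detected in all 8 animals, changed by -0.16 (adjusted p = 0.55).

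**Figure D3:**
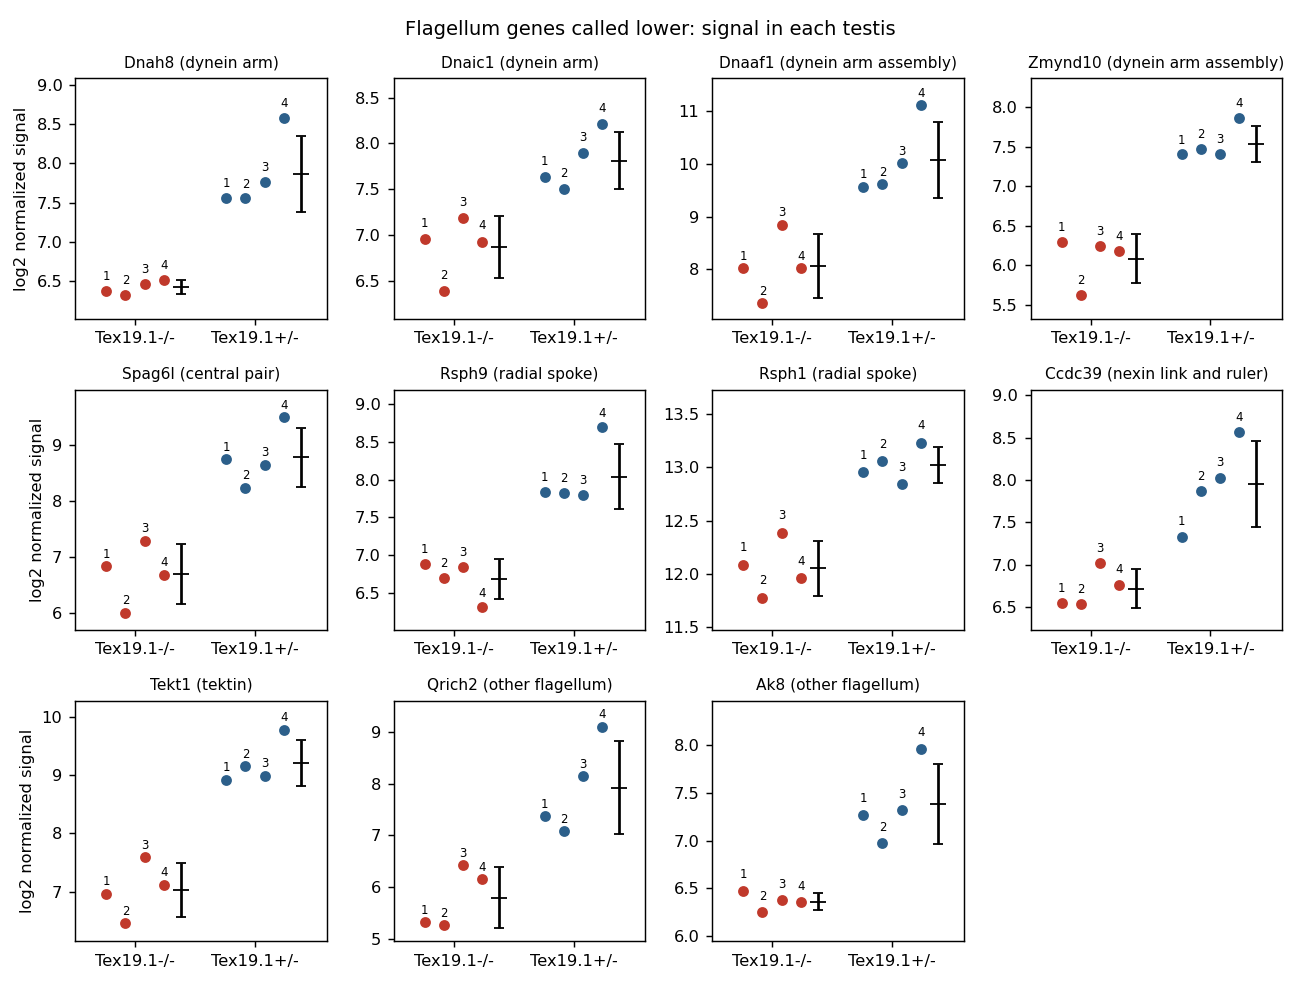
Log2 normalized signal in each testis for the 11 flagellum genes called lower, Tex19.1-/- in red at the left of each panel and Tex19.1+/- in blue at the right. Numbers are replicate numbers, black bars are the mean ± SD of 4 animals, and each panel has its own axis. The genotypes overlap in no panel, and Tex19.1+/- replicate 4 is the highest control in all 11.

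Among the remaining genes, Qrich2, which is needed to build the sperm flagellum, read 5.32, 5.26, 6.43 and 6.16 in Tex19.1-/- testes, against 7.37, 7.09, 8.14 and 9.10 in Tex19.1+/- testes. It was detected in 2 Tex19.1-/- and 4 Tex19.1+/- animals, and fell by 2.13 (standard error 0.38, adjusted p = 0.0054), with the widest interval of the called genes, -3.05 to -1.21. The other probes of Qrich2, detected only in Tex19.1+/- testes, were at least 1.27-fold and at least 1.05-fold lower and were not called (adjusted p = 0.073 and 0.11). Ak8, an adenylate kinase of the axoneme, read 6.47, 6.25, 6.38 and 6.35 in Tex19.1-/- testes and 7.27, 6.97, 7.32 and 7.96 in Tex19.1+/- testes. The Tex19.1-/- values were tightly grouped below all controls, and Ak8 fell by 1.02 (standard error 0.17, adjusted p = 0.0037). Ak7, a related kinase, was detected in 1 Tex19.1+/- animal and changed by -0.27 (adjusted p = 0.27). Mns1, a protein of the doublet lumen, read 10.72, 10.69, 10.82 and 10.65 in Tex19.1-/- testes and 10.89, 11.11, 11.18 and 11.43 in Tex19.1+/- testes. The values of Mns1 did not overlap, and the change of -0.43 was not called (adjusted p = 0.073). Smcp, of the mitochondrial capsule of the sperm midpiece, was not detected.

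Probes of the same gene often disagreed. Of 11 genes with several detected probes, every probe was called lower for Rsph9 and Tekt1, no probe for Dnal1, and some but not others for the remaining 8. In the 6 of these whose brightest probe was called, the dimmer probes had smaller changes, such as -0.09 for Spag6l and -0.56 for Dnaic1. In Spag16 and Odf2 the called probe was not the brightest one. Signals of different probes cannot be set against each other as levels, and which transcripts each probe reads was not analysed here.

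**Figure D4:**
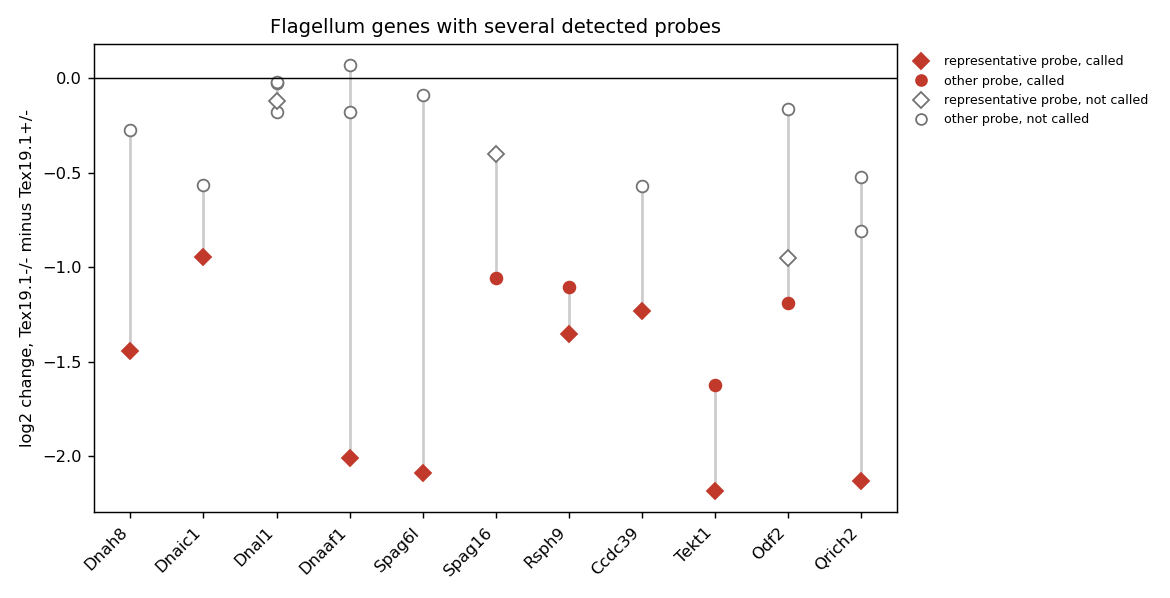
Log2 change (Tex19.1-/- minus Tex19.1+/-) at every detected probe of the 11 flagellum genes with several detected probes. Diamonds are the representative probes, circles the others, and filled red symbols were called lower. Rsph9 and Tekt1 have all their probes called, Dnal1 none, and Dnaaf1 spans -2.01 to 0.07.

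The animals of a genotype were not alike, and the same animals stood at the ends of the range for many of the genes. Among the Tex19.1-/- animals replicate 2 was lowest in 10 of 11 called genes, against 28.3% of all detected probes, and replicate 3 was highest in 7, against 24.6%. Tex19.1+/- replicate 4 was the highest control in 25 of the 30 detected genes and in 11 of the 11 called, whereas it was highest for 27.2% of all detected probes. The mid to late pachytene markers had Tex19.1-/- replicate 2 lowest in 9 of 14 genes and Tex19.1+/- replicate 4 highest in 12 of 14. Across the called genes the median deviation from the genotype mean was -0.46 in Tex19.1-/- replicate 2 and 0.62 in Tex19.1+/- replicate 4. Without Tex19.1+/- replicate 4 the number called lower was 13, and Dnaic1 was not among them.

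**Figure D5:**
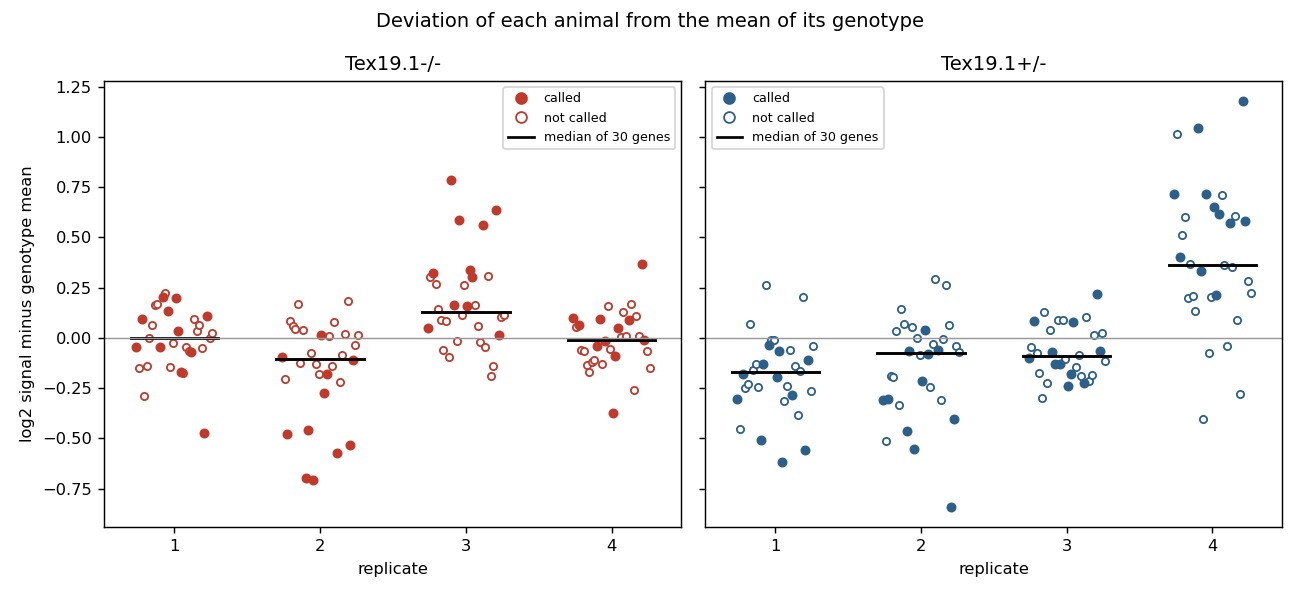
Log2 signal of each of the 30 detected flagellum genes minus the mean of its genotype, for each replicate of Tex19.1-/- (left) and Tex19.1+/- (right). Filled points are the 11 called genes and black lines medians of the 30 genes. Tex19.1-/- replicate 2 lies lowest of its genotype (median -0.10) and Tex19.1+/- replicate 4 highest of its own (median 0.36).

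The count of 11 changed with the animal left out, with the normalization and with the treatment of signals below 0. It was 6 when Tex19.1-/- replicate 1, 2 or 4 or Tex19.1+/- replicate 3 was left out, each time without Ak8, Ccdc39, Dnaaf1, Dnaic1 and Qrich2. It was 10 without Tex19.1-/- replicate 3, and 11, 12 and 13 without Tex19.1+/- replicate 1, 2 and 4. It was 0 with median scaling and 0 with signals below 0 set to 0, and with the replicate block it was 15. In the settings that gave 0 genes, the 15 probes called lower, other than representative ones included, all kept their direction, with changes of -2.13 to -0.52 under median scaling and -5.06 to -0.98 with signals below 0 set to 0. The falls of Tekt1, Zmynd10, Spag6l, Dnah8, Rsph1 and Rsph9 were called whichever animal was left out.

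Tex19.1 lies on chromosome 11, where a knockout line can keep flanking DNA of another strain, and 6 of the 30 detected genes are on that chromosome (Ccdc40, Dnah17, Dnah2, Qrich2, Tekt1 and Tekt3). Of these 2 were called lower, as were 9 of the 24 genes on other chromosomes. The part of flanking DNA in the changes of Tekt1 and Qrich2 was not tested, nor was that of donor DNA left elsewhere in the genome.

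Other genes of the cilium and flagellum were listed for comparison, 99 in all, of which 80 had a probe and 51 were detected. Of these 16 were called lower and 0 higher at their representative probe (34 and 0 at an unadjusted p under 0.05 in limma), 31 had no overlap, and the median change was -0.41. Among all detected probes 1.63% were called lower and 6.06% were lower without overlap. Since 17 of the 51 were detected in no Tex19.1-/- animal, the 26 detected in all 8 animals were counted apart, and of these 11 were called lower, 18 had no overlap and the median change was -0.71. The 4 with the largest moderated t in limma are named, which are not the 4 with the largest change. Tcte3, a dynein light chain, read 8.34, 7.76, 8.19 and 7.93 in Tex19.1-/- testes against 10.10, 9.75, 9.61 and 10.30 in Tex19.1+/- testes, 3.68-fold lower (adjusted p = 1.5e-04). Dynlrb2, also a dynein light chain, fell by 1.79, Nme5, of the radial spokes, by 1.49, and Bbof1, of motile cilia, by 1.36.

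Of 24 listed transcription regulators of ciliary and spermatocyte genes 15 were detected and 4 were called lower, with Tbpl1, which also stands among the pachytene markers, not detected. The list did not fall as a whole: its median change was -0.09, and 5 of the 15 changes were positive. At an unadjusted p under 0.05 in limma, 5 regulators were lower and 2 higher. Rfx2, an X-box binding factor needed for spermatid development in the mouse, read 8.57, 7.93, 8.42 and 8.07 in Tex19.1-/- testes against 9.57, 9.73, 9.46 and 9.76 in Tex19.1+/- testes. Rfx2 fell by 1.39 (standard error 0.14, adjusted p = 1.7e-04), without overlap. Crem, a regulator of spermatid genes, fell by 0.89 at its representative probe and was not called at 3 others, with changes of -0.12 to -0.34. Rfx4 fell by 0.87 (adjusted p = 0.0031) and Tcfl5, a factor of pachytene spermatocytes, by 0.76 (adjusted p = 0.0032). The part of these regulators in the changes of the flagellum genes was not tested.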

How the data were processed

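RNA of whole testes from 4 Tex19.1-/- and 4 Tex19.1+/- mice was measured on Illumina Mouse WG-6 v2.0 Beadchips. For 45281 probes the deposited intensity is a linear signal, which the authors exported from BeadStudio after background subtraction, so values below 0 occur. The BeadStudio version is not given in the sources used here. The authors deposited a detection p-value with each signal. They also deposited log2 values after quantile normalization in lumi, which differ from those computed here by at most 0.0144.

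Signals were shifted so that the lowest of an array was 1, put on the log2 scale and quantile-normalized. A probe was kept if its detection p was under 0.01 in any animal (19089 probes, or 42.2%), and genotypes were compared with lmFit and eBayes in limma 3.58.1 (R 4.3.3), on 6 residual degrees of freedom, with Benjamini-Hochberg adjustment over all kept probes. A call is an adjusted p of at most 0.01. On simulated data the fit was tested to recover known changes. A probe undetected in every animal of a genotype has only a bound there. Its fold is written as "at least" and sets the other genotype's mean over a floor, which in each array is the lowest value of any detected probe, or the value of the probe itself where that is higher, averaged over the arrays. With 4 arrays a genotype, their number limits the precision.

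The platform annotation gave the gene symbols, brought up to date with RefSeq (GRCm38.p6), and promoter windows came from the same release, read with Python 3.11.15 and pandas 2.3.3. Figures were drawn with matplotlib 3.10.9. The members, the comparison lists, the markers and the motifs were chosen with earlier results of these data known. Named are every gene called at any probe, in each class the gene that changed least, genes whose probes disagree, and the 4 of each comparison list with the largest absolute moderated t, with values by animal for at least 2 genes a class where detected. All other members are placed by name.

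Replicate numbers were not given a meaning by the labels. The deviations of same-numbered animals from their genotype means correlated at 0.21, 0.52, 0.10 and 0.23, each above the 0.1 taken as the limit, so a fit with the replicate number as a block is given where it changes a call. The pairing rests on these data alone, and numbers 3 and 4 correlated as well or better across numbers (0.45 and 0.23). Alternatives covered the normalization, the treatment of signals below 0, the detection filter, the variance model, array weights, the block, the mean of a gene's probes and leaving out each animal.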

Additional observations from a re-analysis of the deposited data

Results flagged for a closer look

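In each genotype the highest and the lowest of the 4 values were compared with the nearest other value, relative to the range (Dixon's test). The probes tested were every detected probe of a gene called at any probe, and the representative probe of the gene that changed least in each class. Those of Tex19.1 and of the 4 genes named from each comparison list were also tested. Other members, Ccdc40 and Dnah2 among them, were not tested for outliers. Of 84 such groups 6 stood out, and chance alone flags about 1 in 20 groups.

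At 2 probes Tex19.1-/- replicate 2 was far below the others of its genotype: Zmynd10, where it read 5.62 and the next animal 6.18, and Crem, where it read 6.37 and the next animal 6.69. At 4 probes Tex19.1+/- replicate 4 was far above the other controls: Zmynd10, where it read 7.86 and the next control 7.47, the brighter Rsph9 probe, where it read 8.69 and the next 7.84, the called Odf2 probe, where it read 9.13 and the next 8.49, and the dimmest Qrich2 probe, where it read 6.62 and the next 5.97. These are the animals that also lay lowest and highest across the called flagellum genes. The array of Tex19.1+/- replicate 4 was the dimmest of the controls, with a mean signal before normalization of 90.8 against 145 to 159. Before normalization this animal was the lowest control at Zmynd10 (136), the highest at the Rsph9 (274) and Qrich2 (36.8) probes, and neither at the Odf2 probe. The part of normalization in its high standing was not tested. Without Tex19.1-/- replicate 2 and without Tex19.1+/- replicate 4, Zmynd10 and Rsph9 were still called lower.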

How the results depend on the processing

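No flagellum gene was called higher under any setting. The 11 called lower became 0 with median scaling and 0 with signals below 0 set to 0, and 7 with limma's trend and robust options. None of the 15 called probes changed direction in these settings, and their changes were -2.13 to -0.52 with median scaling and -5.06 to -0.98 with signals below 0 set to 0. Leaving out 1 animal at a time gave 6 to 13. The 20 genes without overlap became 13 with median scaling and were 20 to 22 with 1 animal left out. The 16 other cilium genes became 0 with median scaling and 1 with signals below 0 set to 0, and 9 to 17 with an animal left out. The 4 regulators became 0 and 0 under these settings, 2 when a gene's probes were averaged, and 2 to 4 with an animal left out. With median scaling 1 probe of all 19089 was called lower, and the median change of all detected probes was 0.14. In 2 controls the lowest signal, -112 and -98.7, lies far below the second lowest, -45.7 and -39.4, and sets the shift before the log. Median scaling with the second lowest signal as shift, added after the data were seen, called 14 flagellum genes, 19 other cilium genes and 3 regulators lower. Other counts of flagellum genes called lower were 9 with cyclic loess, 10 with neqc, 14 with array weights, 10 with the mean of all probes, and 11 with the deposited table, no detection filter or detection in every animal of a genotype. With the replicate block 15 flagellum genes were called lower, with Dnali1, Lrrc6, Odf2 and Tekt3 added and none lost, and 21 other cilium genes and 4 regulators. Of the added genes, Lrrc6 and Tekt3 show no fall above background.

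The changes whose sign turned were all small and uncalled. Spef1 was 0.051 with median scaling and 0.036 with array weights. With an animal left out it ranged from -0.10 to 0.054, above 0 without Tex19.1-/- replicate 2 or 4 or Tex19.1+/- replicate 4. Akap4 was 0.023 with median scaling, 0.012 with cyclic loess and 0.25 with signals below 0 set to 0. With an animal left out it ranged from -0.12 to 0.024, above 0 without Tex19.1-/- replicate 3 or Tex19.1+/- replicate 2. The dimmer Spag6l probe was 4.0e-04 without Tex19.1-/- replicate 2, and the bright uncalled Dnaaf1 probe -0.11 with the second lowest signal as shift. The cause of these differences was not tested. The files name no BeadChips, so a fit with the BeadChip as a block was not run.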
